A study of Lytechinus variegatus with 18 samples.

Results

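The genes described here carry or generate acid and bicarbonate in embryos of the sea urchin Lytechinus variegatus: carbonic anhydrases, the bicarbonate transporters of the Slc4 and Slc26 families, the sodium-proton exchangers of the Slc9 family, the subunits of the vacuolar proton pump (V-ATPase) and the otopetrin proton channels. They were chosen by name. Each L. variegatus gene model is named after the Strongylocentrotus purpuratus gene (purple sea urchin) that it matches best, and 46 of 27230 gene models had a name of one of these families. Of the 46, 4 had a mean count under 5 over all libraries and were left out, namely Sp-Cara4LA, Sp-Cara12LB and 2 of 4 gene models named Sp-Slc4a11. The other 42 are 18 V-ATPase gene models, 9 of Slc4, 5 of Slc9, 4 of Slc26, 4 carbonic anhydrases and 2 otopetrins, and the expression filter for testing kept all 42. The name rule also took in Sp-Slc4a1ap, the gene of kanadaptin, which is an adaptor protein named after a bicarbonate exchanger and not a transporter.

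Sea urchin larvae build a skeleton of calcium carbonate inside skeletogenic mesenchyme cells. Carbonic anhydrases speed the conversion of carbon dioxide and water to bicarbonate and a proton, Slc4 and Slc26 proteins move bicarbonate and other anions across membranes, and each carbonate ion laid down as mineral releases protons that have to leave the cell. Slc9 exchangers, otopetrin channels and the V-ATPase are routes for those protons, and the V-ATPase also acidifies vesicles in every cell. In S. purpuratus, Slc4a10 and Otop2L are known from skeletogenic cells.

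All embryos were wild type. Control embryos were compared with embryos given ethanol at fertilization, and both were collected at 15, 18 and 21 hours post fertilization (hpf), with 3 biological replicates in each of the 6 groups. Each of the 18 libraries was made from total RNA of whole embryos, about 150 embryos pooled per sample; the ethanol dose is not given in the sources used here. In whole embryos, fewer cells of a type and less RNA per cell cannot be told apart. The labels do not say whether the replicates came from separate parents, so a p-value measures the spread between these samples.

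The libraries held 7133636 to 8000894 counts. Levels below are counts scaled to library depth with TMM factors (CPM), changes are log2 fold changes with their standard error (SE), and adjusted p-values come from edgeR over all 18674 gene models tested. Libraries with the same replicate number deviated together from their group means at 15 and 18 hpf and between 15 and 21 hpf within a treatment, and for these comparisons the blocked fit, in which the replicate number is a term, is given where it changes a call.

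At 21 hpf the pair of replicate 3 ran opposite to the other pairs. Across the 18674 gene models, its ethanol minus control difference had a correlation of -0.743 with the mean ethanol effect at 15 and 18 hpf, against 0.664 and 0.622 for replicates 1 and 2 at 21 hpf. Of the 42 gene models, 13 had a difference of the same sign in all 8 other pairs, and in all 13 the sign was opposite in this pair. Over all gene models tested, 5821, or 31.2%, had the same sign in the 8 other pairs and 5590 of these, or 96%, were opposite in it. The 13 of 42 are near that share, so the counts of pairs given below describe a gene model and do not set it apart. They include 21 hpf, where replicate numbers were not taken to pair. These 2 libraries therefore go against their labels on the ethanol effect, and the main estimates over time and mean ethanol effects below are given with and without them. Since they were singled out by the direction of their ethanol difference, leaving them out favours the direction of the other pairs. Adjusted p-values for ethanol without them are a description and not independent support.

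Ethanol moved few of these genes past the threshold. Counts at an unadjusted p under 0.05 are given without the share of all gene models at that threshold, so no excess is read from them. At 15 hpf none of the 42 was called by edgeR at an adjusted p under 0.05, against 0.0589% of all gene models, with 3 at an unadjusted p under 0.05; DESeq2 called 1, against 1.15%. With the block, Sp-Slc9a2 was called lower, against a background of 0.477% in either direction and 0.359% lower. At 18 hpf none was called without the block, against 0%, with 3 at an unadjusted p under 0.05; DESeq2 called none, against 1.9%. With the block, Sp-Slc9a8 was called higher, against 4.07% in either direction and 1.46% higher. At 21 hpf none was called, against 0%, none had an unadjusted p under 0.05 and DESeq2 called none; without the pair of replicate 3 none was called either, against 0.0628%. For the mean over the 3 times, Sp-Cara7LA was called lower, against 0.53% of all gene models in either direction and 0.386% lower, and 6 of 42 had an unadjusted p under 0.05. Without the 21 hpf pair of replicate 3, the count for the mean rose to 5 of 42, while the share over all gene models rose to 18.3%, of which 8.47% were higher and 9.86% lower. The 5 were Sp-Cara7LA and Sp-Atp6v1f, which were lower, and Sp-Slc26a11_1, Sp-Slc26a4 and a copy of Sp-Slc9a10, which were higher. With the block and without that pair, 5 of 42 were called at 15 hpf against 15.4% of all gene models, 8 at 18 hpf against 26.9%, 3 at 21 hpf against 10.7% and 21 for the mean against 45.4%. Sp-Cara7LA was lower in each of these 4 fits, with adjusted p-values of 0.00716, 0.00245, 0.00861 and 1.31e-05. The fits at 21 hpf and for the mean use replicate numbers that were not taken to pair at 21 hpf. The pair left out was also the only one in which Sp-Cara7LA was higher with ethanol. Its removal favours a lower estimate and smaller adjusted p-values, so these values are not independent support. With all 18 libraries none of the 42 was called for a dependence of the ethanol effect on time, against 0% with or without the block, with 1 at an unadjusted p under 0.05 without it; DESeq2 called none, against 0.078%. When the 21 hpf pair of replicate 3 was left out, none was called without the block, against 0.0105%, and with the block 1 was called, Sp-Slc9a2 (adjusted p = 0.0493), against 0.199%.

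**Figure D1:**
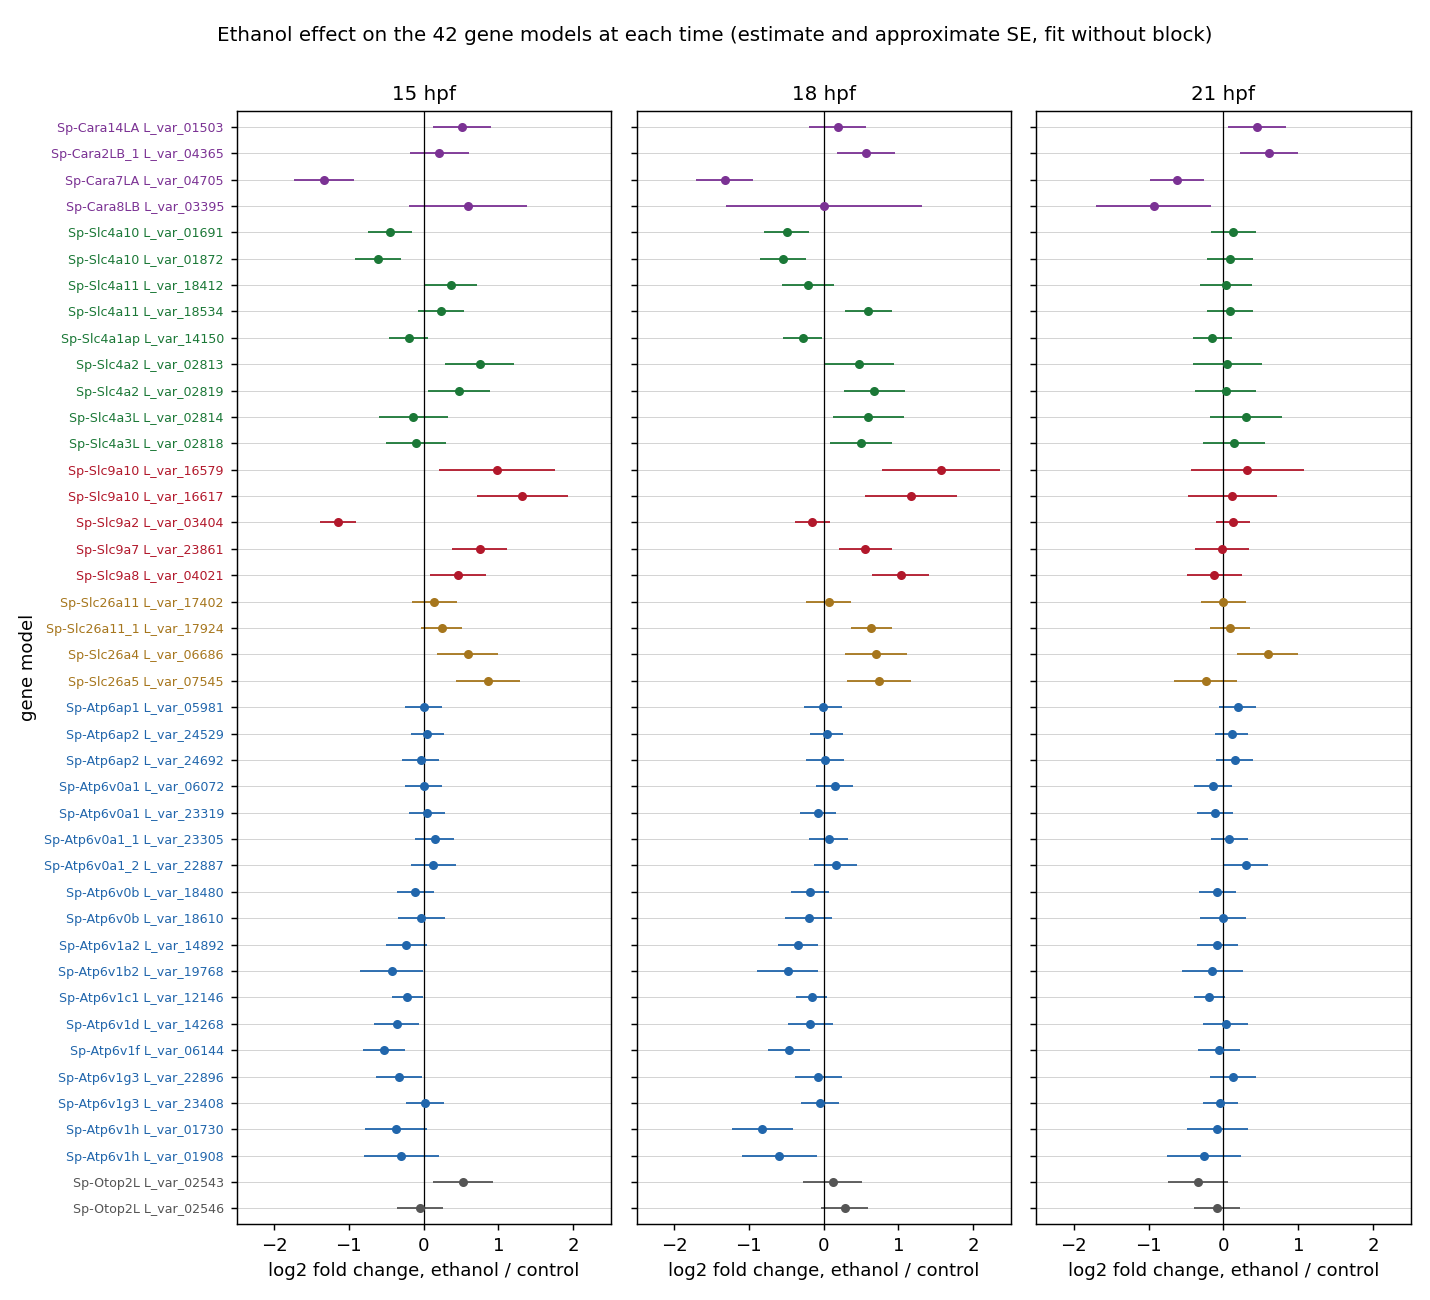
Log2 fold change of ethanol against control (horizontal axis) for each of the 42 gene models (vertical axis, coloured by family) at 15, 18 and 21 hpf; points are estimates of the fit without block and bars their approximate SE. Sp-Cara7LA lies at -1.33 and -1.32 at 15 and 18 hpf, Sp-Slc9a2 at -1.14 at 15 hpf and -0.15 at 18 hpf. At 21 hpf the plotted medians are 0.05 for Slc26, 0.12 for Slc9 and -0.08 for V1 gene models, and without the pair of replicate 3, which is not plotted, they are 0.44, 0.39 and -0.41.

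Among the carbonic anhydrases, Sp-Cara7LA was lower in ethanol embryos and rose with time in both treatments. The gene model L_var_04705 spans bases 61063524 to 61076232 of chromosome 2 on the minus strand, in coordinates of the deposited annotation (build not given in the sources used here). At 15 hpf its level was 5.51, 8.68 and 7.32 CPM in control replicates 1 to 3 and 2.44, 3.41 and 2.67 CPM in ethanol replicates. At 18 hpf it was 14.2, 8.61 and 11.1 CPM in control and 3.42, 5.9 and 4.33 CPM in ethanol embryos. At 21 hpf it was 41, 30.5 and 14 CPM in control and 14.3, 14.3 and 27 CPM in ethanol embryos. The groups did not overlap at 15 and 18 hpf, while at 21 hpf replicates 1 and 2 were lower with ethanol and replicate 3 was higher. The level was lower with ethanol in 8 of 9 pairs. Averaged over the 3 times the change was -1.09 (SE 0.22, adjusted p = 0.0407), a 2.13-fold lower level. In the fit without the 21 hpf pair of replicate 3, the estimate was -1.34, -1.32 and -1.32 at 15, 18 and 21 hpf, and the mean change was -1.33 (SE 0.17, adjusted p = 0.000483). At single times the adjusted p was 0.315 at 15 hpf and 0.231 at 18 hpf, and without that pair it was 0.0617 and 0.0346. The call on the mean was lost without replicate 1 (adjusted p = 0.557) and without replicate 2 (adjusted p = 0.308), and held without replicate 3 (adjusted p = 0.0187).

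From 15 to 21 hpf Sp-Cara7LA rose by 1.99 on the log2 scale in control embryos (SE 0.38, adjusted p = 0.00891) and by 2.71 in ethanol embryos (SE 0.40, adjusted p = 0.00126). Without the 21 hpf pair of replicate 3 the rise was 2.32 in control embryos (SE 0.30, adjusted p = 0.000971) and 2.34 in ethanol embryos (SE 0.31, adjusted p = 0.00147), which lie within 1 SE of each other. The call in control embryos was lost without replicate 1 (adjusted p = 0.215) and without replicate 2 (adjusted p = 0.124), and the call in ethanol embryos without replicate 1 (adjusted p = 0.0589). No other gene model of the 42 had as large a rise in either treatment, with or without that pair. Time accounted for 66.9% of the variance of its log level, treatment for 19.5% and replicate number for 0.231%, whereas replicate number took a median of 28.6% over all gene models.

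The other 3 carbonic anhydrases were not called at any single time with all 18 libraries, with or without the block. Sp-Cara14LA had 133, 197 and 87.1 CPM in control and 195, 283 and 115 CPM in ethanol embryos at 15 hpf. Its level at 18 hpf was 184, 238 and 138 CPM in control and 236, 278 and 123 CPM in ethanol embryos. At 21 hpf it stood at 197, 276 and 185 CPM in control and 346, 341 and 210 CPM in ethanol embryos. It was higher with ethanol in 8 of 9 pairs, with a mean change of 0.38 (SE 0.22, adjusted p = 0.304) without the block, or 0.41 (SE 0.24, adjusted p = 0.237) without the 21 hpf pair of replicate 3, and the groups overlapped at every time. Sp-Cara2LB_1 had 96.1, 136 and 82.8 CPM in control and 102, 192 and 71.2 CPM in ethanol embryos at 15 hpf. At 18 hpf its values were 156, 163 and 91 CPM in control and 218, 240 and 149 CPM in ethanol embryos, and at 21 hpf 147, 150 and 119 CPM against 257, 273 and 106 CPM. It was higher in 7 of 9 pairs, with a mean change of 0.46 (SE 0.22, adjusted p = 0.227) without the block. When the 21 hpf pair of replicate 3 was left out, its mean change was 0.53 (SE 0.21, adjusted p = 0.0933). Sp-Cara8LB, which in mammals belongs to the carbonic anhydrase-related proteins without catalytic activity, had at most 2.06 CPM in a library, and no change could be detected at this depth.

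**Figure D2:**
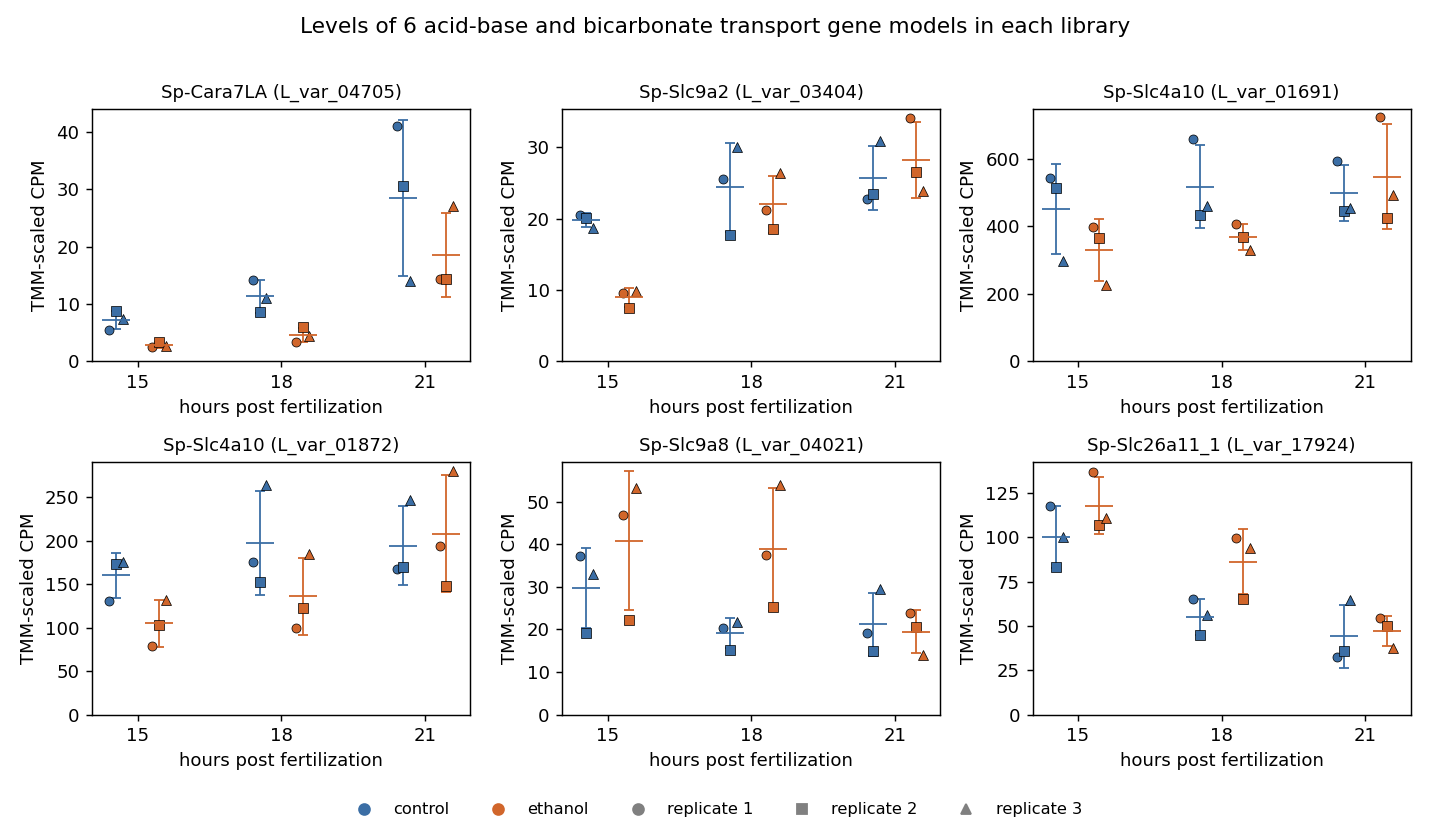
TMM-scaled CPM (vertical axis, from 0) against hours post fertilization for 6 gene models; each point is a library, with colours for control and ethanol and shapes for replicates 1 to 3, and the bar gives the mean and SD of 3 libraries. Sp-Cara7LA and Sp-Slc9a2 show no overlap between treatments at 15 hpf, and at 21 hpf the triangles of replicate 3 reverse the order of the other replicates for Sp-Cara7LA, Sp-Slc9a2, Sp-Slc9a8 and Sp-Slc26a11_1.

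Skeletogenic marker genes were measured beside these levels, since the calcifying cells are a small part of the embryo. A list of 9 markers matched 8 names and 9 gene models, none of them at 0 in any library. Their summed level ranged from 2753 to 4645 CPM in control and from 1792 to 5569 CPM in ethanol embryos at 15 hpf. At 18 hpf the ranges were 3357 to 4216 CPM and 2575 to 3272 CPM, which do not overlap, and at 21 hpf 3829 to 4788 CPM and 3284 to 5238 CPM. Of the 9 gene models, 3 had a lower estimate with ethanol at 15 hpf, 5 at 18 hpf and 3 at 21 hpf, and none was called. Markers of ciliary band and neural ectoderm, 2 of 3 names matched, summed to 269 to 298 CPM in control and 127 to 146 CPM in ethanol embryos at 15 hpf. At 18 hpf this sum was 388 to 479 CPM and 262 to 272 CPM. At 21 hpf it was 292 to 481 CPM and 315 to 483 CPM, which overlap, with 292 and 483 CPM in the pair of replicate 3. All 3 of their gene models had a lower estimate with ethanol at 15 and 18 hpf, and 2 at 21 hpf. None was called without the block, and 1 at 15 hpf and 2 at 18 hpf were called with it, against 0.477% and 4.07% of all gene models. The gut markers, 4 of 4 matched in 5 gene models, summed to 1668 to 3167 CPM and 1014 to 2949 CPM at 15 hpf, and to 2167 to 2367 CPM and 2127 to 3132 CPM at 18 hpf. Their sum at 21 hpf was 1878 to 3541 CPM and 2010 to 3909 CPM. Of these 5 gene models, 2 were at 0 in some libraries, 4 had a lower estimate with ethanol at 15 hpf, 3 at 18 hpf and 3 at 21 hpf. Of the gut gene models none was called at a single time without the block, and 2 were called at 18 hpf with it, against 4.07% of all gene models. For the mean over times 1 was called without the block, against 0.53%. The 1 of 3 pigment cell markers that matched had 4541 to 5118 CPM and 3089 to 7116 CPM at 15 hpf, and 3144 to 6201 CPM and 6199 to 6554 CPM at 18 hpf. At 21 hpf it had 2474 to 5106 CPM and 4439 to 9675 CPM, and it was not called. The part of any of these cell types in the changes of the transport genes was not tested.

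In the Slc4 family, the estimates at 18 hpf were below 0 for both gene models of the sodium-coupled transporter and above 0 for all 4 of the chloride-bicarbonate exchangers, and with all 18 libraries none was called. The other times did not show this split. At 15 hpf the exchanger Sp-Slc4a3L was also below 0, at -0.14 and -0.10, and Sp-Slc4a2 was above 0, at 0.75 and 0.47. At 21 hpf, with all 18 libraries, the estimates of both kinds were above 0, from 0.03 to 0.30. Sp-Slc4a10, the sodium-dependent bicarbonate transporter, is carried by 2 gene models, L_var_01691 and L_var_01872, on the plus strand of chromosome 1 and 5.7 Mb apart. L_var_01691 had 541, 513 and 297 CPM in control and 396, 365 and 226 CPM in ethanol embryos at 15 hpf. At 18 hpf it had 659, 433 and 458 CPM in control and 407, 367 and 330 CPM in ethanol embryos. At 21 hpf the values were 594, 445 and 454 CPM against 723, 424 and 492 CPM. Each ethanol library was below its control partner at 15 and 18 hpf, and 2 of 3 were above it at 21 hpf. The estimates were -0.45 (SE 0.30), -0.49 (SE 0.30) and 0.13 (SE 0.30), with adjusted p-values of 0.579, 0.396 and 1.

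The second Sp-Slc4a10 gene model, L_var_01872, followed the same order. It had 130, 173 and 175 CPM in control and 78.7, 103 and 132 CPM in ethanol embryos at 15 hpf. At 18 hpf its values were 175, 152 and 264 CPM against 99.7, 123 and 185 CPM, and at 21 hpf 167, 169 and 247 CPM against 194, 148 and 280 CPM. The 15 hpf estimate was -0.61 (SE 0.31, adjusted p = 0.487) and the 18 hpf estimate -0.54 (SE 0.31, adjusted p = 0.378). From 15 to 21 hpf both gene models rose in ethanol embryos when the replicate number was blocked, with adjusted p-values of 0.0335 for L_var_01691 and 0.00344 for L_var_01872, or 0.0826 and 0.00714 without the 21 hpf pair of replicate 3. Without the block the changes were 0.73 (SE 0.30, adjusted p = 0.226) and 0.99 (SE 0.32, adjusted p = 0.104), or 0.80 (SE 0.34) and 0.71 (SE 0.32) without that pair. In control embryos the changes over the same interval were 0.15 (SE 0.30) and 0.28 (SE 0.31), or 0.21 (SE 0.34) and 0.07 (SE 0.32) without that pair, and were not called. Whether the ethanol effect on Sp-Slc4a10 differed between times did not reach the threshold, with adjusted p-values of 0.772 and 0.766 under the block. The block is an alternative only here, since replicate numbers were not taken to pair at 21 hpf.

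The chloride-bicarbonate exchangers Sp-Slc4a2 and Sp-Slc4a3L have 2 gene models each, all 4 between 95928296 and 96170303 on chromosome 1, with one of each name on either strand. Sp-Slc4a2 was higher with ethanol in 8 of 9 pairs in both gene models, and the exception in both was the 21 hpf pair of replicate 3. The mean change was 0.43 (SE 0.26, adjusted p = 0.333) for L_var_02813 and 0.39 (SE 0.24, adjusted p = 0.318) for L_var_02819, and without that pair 0.54 (SE 0.29, adjusted p = 0.202) and 0.52 (SE 0.24, adjusted p = 0.145). Sp-Slc4a3L fell with time. L_var_02818 had 105, 31.7 and 53.1 CPM in control embryos at 15 hpf and 19, 20.5 and 24.6 CPM at 21 hpf. In ethanol embryos it went from 88.5, 35.5 and 52.7 CPM to 29.9, 19 and 21.8 CPM. The groups did not overlap, and replicate 1 was the highest library at 15 hpf in both treatments. The change was -1.56 in control embryos (SE 0.41, adjusted p = 0.0447, or 0.072 without the 21 hpf pair of replicate 3) and -1.32 in ethanol embryos (SE 0.41, adjusted p = 0.0916, or 0.249 without that pair). With the block it fell in both treatments, with adjusted p-values of 0.00252 and 0.00382, or 0.00147 and 0.00802 without that pair. L_var_02814 had 90.5, 25.4 and 31 CPM in control embryos at 15 hpf and 15.3, 15.3 and 13.4 CPM at 21 hpf, and its change of -1.74 (SE 0.48) had an adjusted p of 0.0549 without and 0.00172 with the block, or 0.109 and 0.000654 without the 21 hpf pair of replicate 3.

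Sp-Slc4a11, known in mammals as a membrane transporter of protons or ammonia, kept 2 gene models with at most 10.3 CPM, and neither was called in any comparison. Kanadaptin, Sp-Slc4a1ap, had a lower level with ethanol in 8 of 9 pairs, with a mean change of -0.21 (SE 0.15, adjusted p = 0.396), or -0.26 (SE 0.17, adjusted p = 0.272) without the 21 hpf pair of replicate 3.

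In the Slc9 family, Sp-Slc9a2 had a lower estimate with ethanol at 15 hpf and the other 4 gene models a higher one. Sp-Slc9a2, known in mammals as a plasma membrane exchanger, is L_var_03404 on chromosome 2 from 18569723 to 18612465 on the plus strand. It had 20.5, 20.1 and 18.7 CPM in control embryos at 15 hpf and 9.53, 7.43 and 9.9 CPM in ethanol embryos. At 18 hpf the values were 25.6, 17.7 and 30 CPM in control and 21.2, 18.5 and 26.4 CPM in ethanol embryos. At 21 hpf they were 22.7, 23.4 and 30.9 CPM against 34.1, 26.6 and 23.9 CPM. The groups were separate at 15 hpf and overlapped at 18 and 21 hpf. The 15 hpf change was -1.14 (SE 0.24, adjusted p = 0.155), and with the block -1.15 (SE 0.21, adjusted p = 0.025). The blocked call was lost without replicate 1 (adjusted p = 0.281) and without replicate 2 (adjusted p = 0.277). The change was -0.15 (SE 0.23) at 18 hpf and 0.13 (SE 0.23) at 21 hpf, or 0.39 (SE 0.27) at 21 hpf without the pair of replicate 3.

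Sp-Slc9a2 rose from 15 to 21 hpf in ethanol embryos by 1.65 on the log2 scale (SE 0.24, adjusted p = 0.00126), a 3.14-fold rise. In control embryos the change was 0.38 (SE 0.24, adjusted p = 0.446). In the fit without the 21 hpf pair of replicate 3, these changes were 1.76 (SE 0.25, adjusted p = 0.00202) and 0.22 (SE 0.25, adjusted p = 0.71). The ethanol call was lost without replicate 1 (adjusted p = 0.101). The test of a dependence of the ethanol effect on time gave an adjusted p of 1 without the block and 0.539 with it. Without the 21 hpf pair of replicate 3 it gave 1 without the block and 0.0493 with it, so that 1 of these 4 fits passed the threshold. That fit uses the block, although replicate numbers were not taken to pair at 21 hpf.

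The organelle exchangers had higher estimates with ethanol at 15 and 18 hpf. Sp-Slc9a8, known in mammals from the Golgi and endosomes, had 37.2, 19.1 and 32.9 CPM in control and 46.8, 22.3 and 53.2 CPM in ethanol embryos at 15 hpf. At 18 hpf it had 20.4, 15.1 and 21.7 CPM in control and 37.4, 25.2 and 53.8 CPM in ethanol embryos. At 21 hpf its values were 19.2, 15 and 29.4 CPM against 23.8, 20.6 and 14.1 CPM. The groups did not overlap at 18 hpf, where the change was 1.03 (SE 0.38, adjusted p = 0.248), and with the block 0.99 (SE 0.27, adjusted p = 0.0488). That call was lost when any 1 replicate was left out, with adjusted p-values of 0.207, 0.197 and 0.0696 without replicates 1, 2 and 3. From 15 to 21 hpf it fell in ethanol embryos under the block by 0.95 on the log2 scale (adjusted p = 0.0294), against an adjusted p of 0.143 without it. When the 21 hpf pair of replicate 3 was left out, the blocked change was -0.62 (adjusted p = 0.0778).

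Sp-Slc9a7, the other organelle exchanger, went from 5.39, 2.38 and 3.38 CPM at 15 hpf to 8.04, 7.08 and 9.48 CPM at 21 hpf in control embryos. This change of 1.13 (SE 0.37) had an adjusted p of 0.101 without and 0.0144 with the block, or 0.199 and 0.0252 without the 21 hpf pair of replicate 3. In ethanol embryos the levels were 6.76, 3.56 and 8.46 CPM at 15 hpf and 7.88, 8.42 and 7.96 CPM at 21 hpf, which overlap. Sp-Slc9a10, known in sea urchins as the exchanger of sperm, has 2 gene models 1.1 Mb apart on chromosome 9 with low counts. L_var_16579 had ethanol estimates of 0.98, 1.57 and 0.32 at 15, 18 and 21 hpf and a mean change of 0.96. L_var_16617 was higher with ethanol in 8 of 9 pairs, with a mean change of 0.87 (SE 0.35, adjusted p = 0.162). In the fit without the 21 hpf pair of replicate 3, the mean change was 1.23 (SE 0.34, adjusted p = 0.0239). Its levels lay between 1.19 and 10.5 CPM, and both the lowest and the highest of these were at 15 hpf.

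All 4 Slc26 gene models had a higher estimate with ethanol at 15 and at 18 hpf, under either scaling of the libraries, and none was called at a single time with all 18 libraries. Their median change was 0.41 at 15 hpf and 0.67 at 18 hpf, against 0.04 and 0.05 over all gene models. Sp-Slc26a4 has the name of the mammalian chloride-bicarbonate exchanger pendrin from its S. purpuratus hit. Its UniProt and RefSeq matches in the deposited annotation are SLC26A5 and a prestin-like protein, so its identity is not settled. Sp-Slc26a4 had 15.8, 17 and 12.4 CPM in control and 33.3, 20.3 and 14.5 CPM in ethanol embryos at 15 hpf. At 18 hpf it had 16, 12.7 and 10.4 CPM against 31.9, 18.4 and 13.4 CPM, and at 21 hpf 15.6, 12.7 and 10.5 CPM against 25.9, 24 and 8.48 CPM. It was higher in 8 of 9 pairs although the groups overlapped at every time, with replicate 1 the highest ethanol library throughout. The mean change was 0.63 (SE 0.23, adjusted p = 0.137) without the block, and without the 21 hpf pair of replicate 3 it was 0.70 (SE 0.21, adjusted p = 0.0344).

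Sp-Slc26a11_1, a relative of a mammalian sulfate and anion transporter, fell with time in both treatments. It had 118, 83.1 and 100 CPM in control embryos at 15 hpf, 65.1, 44.9 and 56 CPM at 18 hpf and 32.3, 35.8 and 64.7 CPM at 21 hpf. In ethanol embryos it had 137, 107 and 111 CPM, then 99.8, 65.2 and 94 CPM, then 54.4, 49.8 and 37.8 CPM. The change from 15 to 21 hpf was -1.18 in control embryos (SE 0.28, adjusted p = 0.0256) and -1.32 in ethanol embryos (SE 0.28, adjusted p = 0.0121). Without the 21 hpf pair of replicate 3 it was -1.56 in control embryos (SE 0.26, adjusted p = 0.00354) and -1.18 in ethanol embryos (SE 0.25, adjusted p = 0.0199), so that the order of these estimates differed between the fits. At 18 hpf every ethanol library was above every control library, with a change of 0.64 (SE 0.27, adjusted p = 0.277). Sp-Slc26a5 is named after mammalian prestin, while its UniProt match is Slc26a2. Sp-Slc26a5 was higher with ethanol in 8 of 9 pairs, with a mean change of 0.45 (SE 0.25, adjusted p = 0.272), or 0.62 (SE 0.26, adjusted p = 0.104) without that pair. Sp-Slc26a11 had a mean change of 0.07 (SE 0.17), or 0.11 (SE 0.20) without that pair, and it fell with time in ethanol embryos under the block by 0.65 on the log2 scale (adjusted p = 0.0194, or 0.0471 without that pair), against an adjusted p of 0.331 without the block.

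The V-ATPase consists of the V1 sector, which hydrolyses ATP in the cytosol, and the V0 sector, which passes protons through the membrane. The gene models were divided into the sectors after their values had been seen, and no test was made of the division. The 9 V1 gene models code for subunits A, B, C, D, F, G and H. Of these, 8 had a lower estimate with ethanol at 15 hpf and 9 at 18 hpf, with medians of -0.33 and -0.34, and these counts held under both scalings and in DESeq2. The 6 V0 gene models, for subunit a and the 21 kDa proteolipid subunit, split into 3 above and 3 below 0 at each of these times, with a median of 0.02 at 15 hpf. At 21 hpf without the pair of replicate 3, all 9 V1 gene models were below 0 with a median of -0.41, and 5 of 6 V0 gene models were below 0 with a median of -0.18; with that pair the counts were 7 of 9 and 4 of 6, with medians of -0.08 and -0.05. None of the 18 V-ATPase gene models was called for ethanol at a single time with all 18 libraries, with or without the block; without the 21 hpf pair of replicate 3, the blocked fit called Sp-Atp6v1h (L_var_01730) lower at 18 hpf (adjusted p = 0.00724).

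The V1 sum ran from 562 to 745 CPM in control and from 410 to 704 CPM in ethanol embryos at 15 hpf. At 18 hpf it ran from 614 to 838 CPM and from 537 to 704 CPM, and at 21 hpf from 501 to 922 CPM and from 695 to 792 CPM, so that the groups overlapped at each time. The V0 sum ran from 129 to 164 CPM and from 115 to 169 CPM at 15 hpf. Within pairs, all 9 V1 gene models were lower with ethanol in replicate 1 at every time, and all 9 were higher in the 21 hpf pair of replicate 3, by a median of 0.59 on the log2(CPM + 1) scale. In that pair 5 of 6 V0 gene models were also higher, by a median of 0.35, while in replicates 1 and 2 at 21 hpf 4 and 5 of 6 were lower. The median difference of the V1 gene models in the 8 other pairs lay between -0.57 and -0.06.

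**Figure D3:**
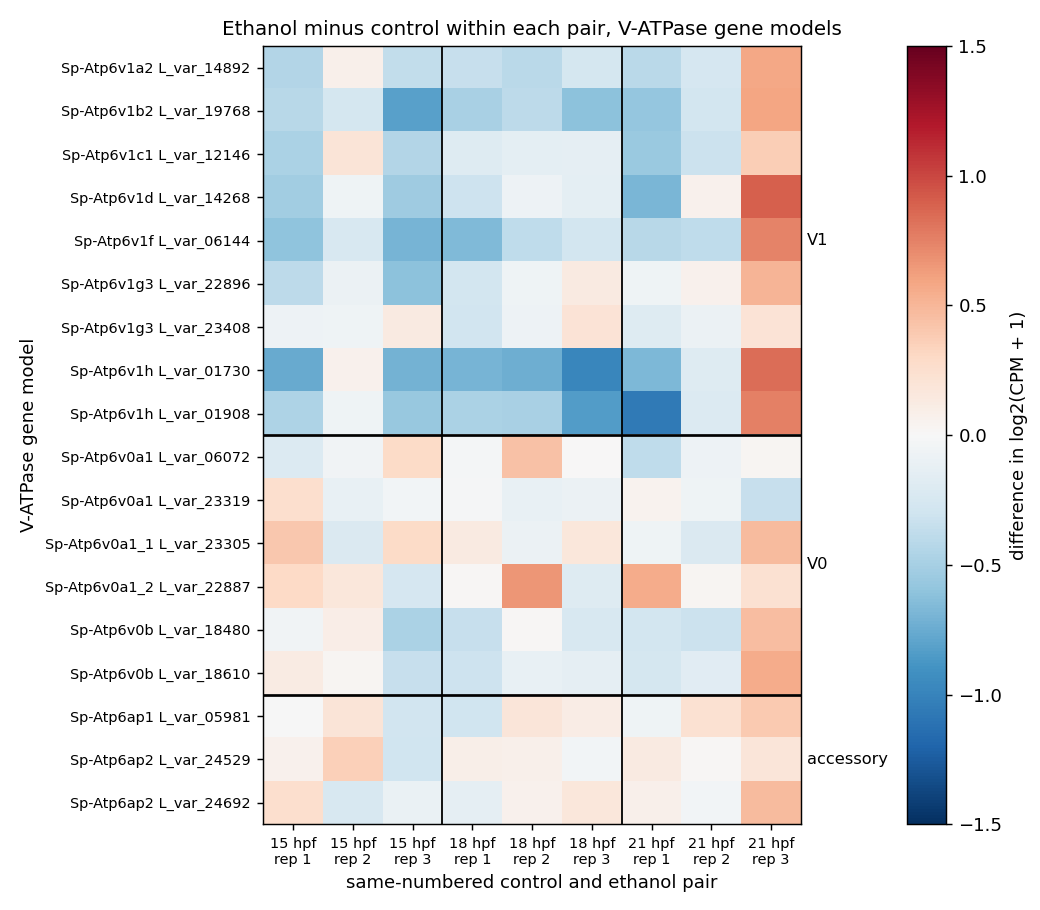
Ethanol minus control in log2(CPM + 1), as colour, for each V-ATPase gene model (vertical axis) in each same-numbered pair of libraries (horizontal axis), with V1, V0 and accessory gene models divided by lines. The V1 block is mostly blue, with medians from -0.57 to -0.06, except in the 21 hpf pair of replicate 3, where all 9 gene models are above 0; the V0 and accessory blocks are mixed.

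Sp-Atp6v1f, the F subunit of the rotor shaft, had non-overlapping groups at both early times. It had 95.2, 85.1 and 112 CPM in control and 62.3, 72 and 68.9 CPM in ethanol embryos at 15 hpf, and 137, 87.6 and 89 CPM against 86.3, 67.1 and 73.9 CPM at 18 hpf. Its changes were -0.53 (SE 0.28, adjusted p = 0.5) and -0.46 (SE 0.28, adjusted p = 0.389), and without the 21 hpf pair of replicate 3 its mean change was -0.47 (SE 0.15, adjusted p = 0.0487). Sp-Atp6v1h, the regulatory H subunit, has 2 gene models 5.64 Mb apart on chromosome 1. L_var_01730 had 27, 42.1 and 24.5 CPM in control and 16.2, 24.9 and 11.9 CPM in ethanol embryos at 18 hpf, a change of -0.82 (SE 0.41, adjusted p = 0.322). At 15 hpf its levels were 18.3, 27.2 and 19.7 CPM against 10.4, 28.7 and 11.7 CPM, and at 21 hpf 35.4, 39.4 and 16.2 CPM against 21.8, 34.4 and 29.9 CPM. Sp-Atp6v1g3 (L_var_22896) had the highest mean CPM of the V-ATPase gene models. Its ethanol estimates with all 18 libraries were -0.33, -0.07 and 0.13 at 15, 18 and 21 hpf.

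With time, the subunits of the catalytic head rose under the block. Sp-Atp6v1b2, the non-catalytic B subunit, had 71.3, 151 and 75.5 CPM in control embryos at 15 hpf and 214, 236 and 113 CPM at 21 hpf. In ethanol embryos it went from 53, 126 and 42.4 CPM to 143, 195 and 170 CPM. The change was 0.92 in control and 1.20 in ethanol embryos, each with an SE of 0.42. The adjusted p-values were 0.259 and 0.143 without the block, and 0.016 and 0.00197 with it. When the 21 hpf pair of replicate 3 was left out, the changes were 1.18 and 1.20, with adjusted p-values of 0.158 and 0.229 without and 0.00309 and 0.00345 with the block. Sp-Atp6v1a2, the catalytic A subunit, changed by 0.67 and 0.82, each with an SE of 0.27, with blocked adjusted p-values of 0.0456 and 0.0122 and unblocked values of 0.192 and 0.116. Without that pair the changes were 0.91 and 0.80, with blocked adjusted p-values of 0.00765 and 0.0263. The largest fall of a V-ATPase gene model in control embryos was -0.25, for Sp-Atp6v1d in the fit without the block. Without that pair and without the block, all 9 V1 gene models had estimates above 0 in control embryos. Replicate number accounted for a median of 39.8% of the variance of the 18 V-ATPase gene models, against 28.6% over all gene models. The accessory proteins Sp-Atp6ap1 and Sp-Atp6ap2, 3 gene models in all, were not called in any comparison with or without the block.

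Sp-Otop2L, the otopetrin proton channel, has 2 gene models whose starts lie 45809 bases apart on chromosome 1. L_var_02543 had 3.08, 3.74 and 4.51 CPM in control and 6.87, 5.58 and 3.89 CPM in ethanol embryos at 15 hpf. The estimate was 0.53 (SE 0.40, adjusted p = 0.631), with 2 of 3 pairs higher. L_var_02546 had 5.64, 6.64 and 6.34 CPM against 6.43, 6.51 and 5.01 CPM, an estimate of -0.05 (SE 0.31). Neither was called in any comparison.

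From 15 to 21 hpf Sp-Cara7LA rose and Sp-Slc26a11_1 fell in both treatments, with and without the 21 hpf pair of replicate 3. In control embryos 3 of 42 were called without the block, Sp-Cara7LA higher and Sp-Slc26a11_1 and Sp-Slc4a3L lower, against 3.88% of all gene models, 2.39% higher and 1.49% lower. With the block 8 of 42 were called, 5 higher and 3 lower, against 13.3%, 7.35% higher and 5.91% lower. In ethanol embryos 3 of 42 were called without the block, Sp-Cara7LA and Sp-Slc9a2 higher and Sp-Slc26a11_1 lower, against 3.75%, 2.97% higher and 0.776% lower. With the block 15 of 42 were called, 10 higher and 5 lower, against 12%, 8.05% higher and 3.97% lower. DESeq2 called 5 of 42 in each treatment, against 8.11% in control and 7.07% in ethanol embryos. The calls without the block fell to 0 in control embryos when replicate 1 or replicate 2 was left out, against 0% of all gene models in both fits, and to 0 in ethanol embryos without replicate 1, against 0.296%. With the block they fell in control embryos to 1 without replicate 1, against 3.82%, and 2 without replicate 2, against 2.09%. In ethanol embryos they fell to 6 without replicate 1, against 4.07%, and 7 without replicate 3, against 7.23%. In the fit without the 21 hpf pair of replicate 3, 2 of 42 were called in control and 3 in ethanol embryos without the block, against 5.46% and 2.68%, and 8 and 12 with it, against 18.4% and 11.7%.

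Groups of 3 libraries did not overlap for 5 gene models that were higher at 21 hpf and 3 that were lower in control embryos, against 9.6% and 8.87% of all gene models. In ethanol embryos these counts were 8 and 4, against 9.9% and 8.35%. For ethanol against control, 3 gene models had non-overlapping lower levels at 15 hpf and none a higher level, against 7.48% and 6.68%. At 18 hpf 4 were lower and 4 higher, against 13.8% and 13.5%. At 21 hpf no gene model was free of overlap, against 1.27% lower and 1.03% higher.

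**Figure D4:**
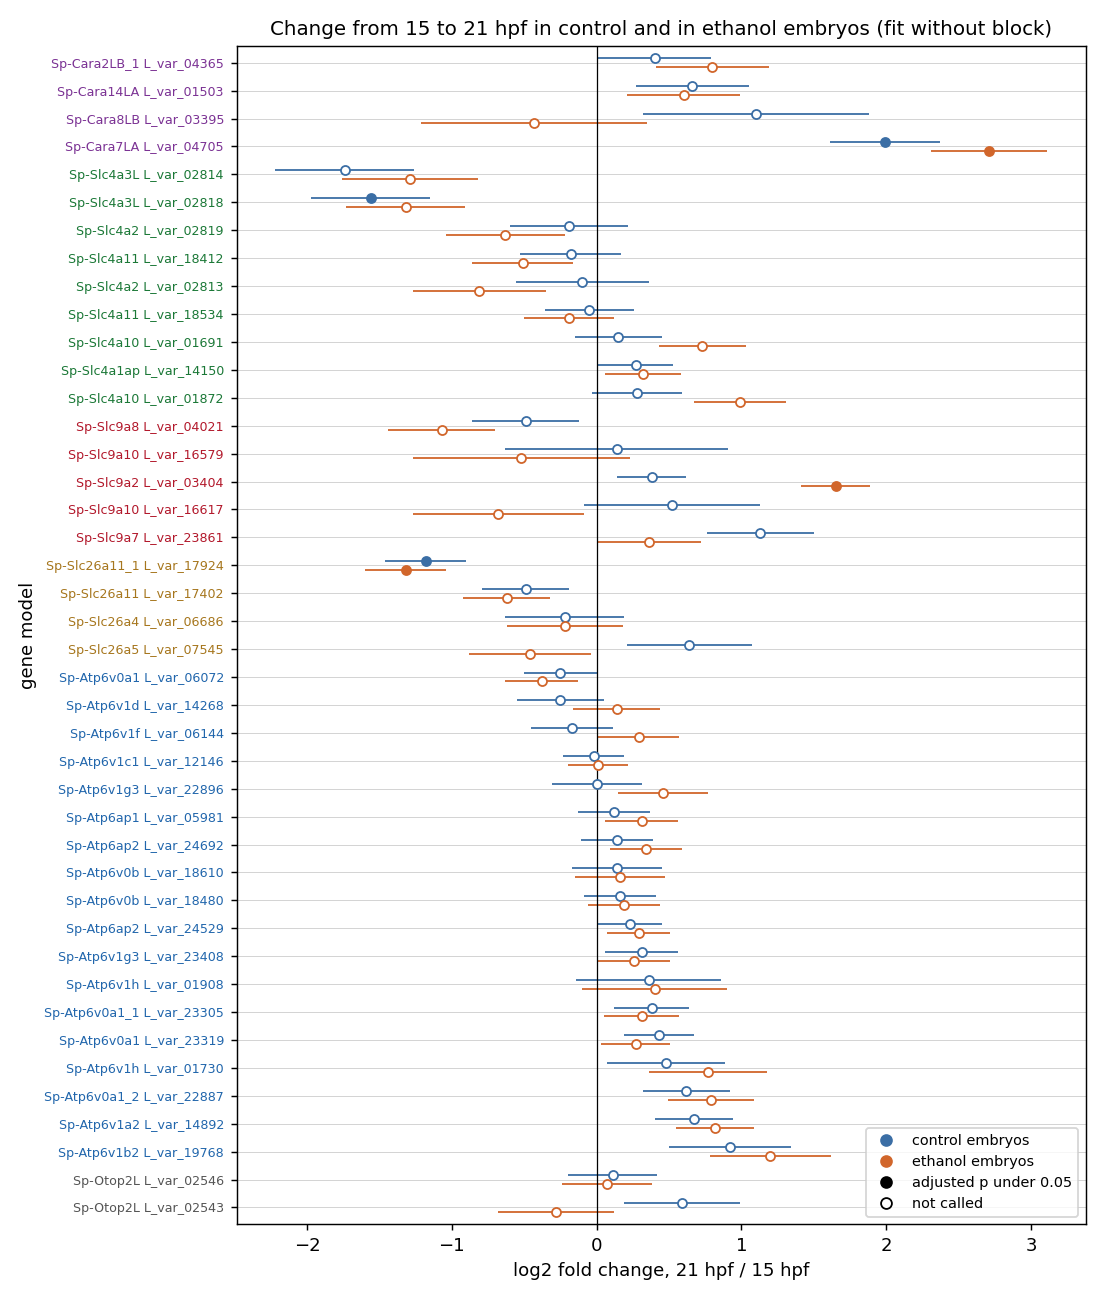
Log2 fold change from 15 to 21 hpf (horizontal axis) of each of the 42 gene models (vertical axis, labels coloured by family) in control and in ethanol embryos; points are estimates of the fit without block, bars their approximate SE, and filled points have an adjusted p under 0.05. Sp-Cara7LA is highest in both treatments at 1.99 and 2.71, Sp-Slc26a11_1 is filled on the left at -1.18 and -1.32 (2.32, 2.34, -1.56 and -1.18 without the 21 hpf pair of replicate 3, not plotted), and Sp-Slc9a2 is filled in ethanol embryos at 1.65 and open in control embryos at 0.38.

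Ion transporters that work beside these proteins were read from a list of sodium-potassium and calcium pumps, sodium-calcium exchangers, cation-chloride cotransporters, the voltage-gated proton channel and the bicarbonate-sensing adenylyl cyclase. Of 19 gene models tested, none was called for ethanol at 15, 18 or 21 hpf by edgeR with or without the block, and 1, 4 and 0 had an unadjusted p under 0.05 without it. Over all gene models, the shares called at an adjusted p under 0.05 were 0.0589%, 0% and 0% without the block and 0.477%, 4.07% and 0% with it. The share of all gene models at an unadjusted p under 0.05 is not given here, so no excess is read from those counts. Their ethanol estimates without the block ran from -2.15 to 1.24 at 18 hpf. From 15 to 21 hpf, the changes ran from -1.08 to 2.68 in control embryos and from -1.41 to 1.99 in ethanol embryos. The number called over time in this list is not given here, so the genes named next do not stand for the list. Sp-Slc8a3, a sodium-calcium exchanger, rose from 150, 115 and 101 CPM at 15 hpf to 274, 232 and 212 CPM at 21 hpf in control embryos. This was a change of 0.97 (SE 0.24, adjusted p = 0.0346), and it also rose in ethanol embryos (adjusted p = 0.00443), with adjusted p-values of 0.0324 and 0.00756 without the 21 hpf pair of replicate 3. Sp-Hvcn1, the proton channel, went from 27.6, 14.1 and 25.4 CPM to 9.46, 7.04 and 8.74 CPM in ethanol embryos, a change of -1.41 (SE 0.37, adjusted p = 0.0422, or 0.123 without the 21 hpf pair of replicate 3).

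Many of the 42 gene models have the same best hit as another and are called copies here. The 42 share 31 S. purpuratus hits, and 22 of them form 11 pairs with the same hit. How alike the members of a pair are was not measured. The Sp-Atp6v0a1 pair lies on chromosomes 15 and 3, with 50.437% and 45.4% identity to its hit. Where copies are near-identical, reads may have been divided between them or dropped, so the values of these 22 are uncertain. The estimates of the copies had the same sign in 7 of 11 pairs for ethanol at 15 hpf, 9 at 18 hpf and 10 at 21 hpf, and differed by at most 0.80 on the log2 scale.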

How the data were processed

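Whole-number read counts per gene model were used as deposited by the authors; fastp, STAR and featureCounts are named without versions in the submitters' processing notes, and the strand setting and genome build are not given in the sources used here. Gene names are best hits in S. purpuratus, and the deposited annotation gives each hit's percent identity per the file headers. Columns are tied to samples by the deposited sample sheet, with letters A, B and C taken as biological replicates 1, 2 and 3.

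In R 4.3.3, edgeR 4.0.16 (filterByExpr with minimum count 10 and minimum total 15, TMM scaling, quasi-likelihood F test of 6 group means over 18 libraries, two-sided) gave 7 comparisons, with Benjamini-Hochberg adjustment over 18674 gene models and a threshold of 0.05. The SE is the fold change divided by the square root of F, an approximation. Scripts were tested on simulated counts. DESeq2 1.42.0, RLE scaling, no filter, a replicate block and left-out libraries were alternatives; summing copies with the same hit was chosen after seeing the data. Variance shares and pair differences use log2(CPM + 1).

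The fit without the block was fixed as the primary one. Pairing was read from correlations, across gene models, of same-numbered libraries' deviations from their group means. They were 0.742, 0.715 and 0.600 at 15 hpf, 0.630, 0.680 and 0.655 at 18 hpf, 0.223 to 0.611 between control 15 and 21 hpf and 0.309 to 0.573 between ethanol 15 and 21 hpf. At 21 hpf they were 0.156, 0.402 and -0.222, so that numbers were not taken to pair that time, the mean over times or the dependence on time.

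The members, marker lists and other lists were chosen with earlier results of these data known. Values are given for members called for ethanol in either fit, for the highest and the most changing member of each family, and for every member of families of 5 or fewer; other members with values were picked after these had been seen. The p-values rest on the spread between libraries. No transcript lengths were used, so apart from picking the highest member of a family by mean CPM, levels are not compared between genes.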

Additional observations from a re-analysis of the deposited data

Results flagged for a closer look

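The ethanol effect on Sp-Slc9a2 differed between 15, 18 and 21 hpf with an adjusted p of 0.0493 in edgeR's quasi-likelihood F test when the replicate number was blocked and both 21 hpf libraries of replicate 3 were left out. With the block and all 18 libraries the adjusted p was 0.539, and without the block it was 1 with and without that pair. The estimates without that pair and with the block were -1.16 at 15 hpf, -0.14 at 18 hpf and 0.38 at 21 hpf, where 2 libraries of each treatment remained. The level was lower with ethanol in 3 of 3 pairs at 15 hpf. The call is close to the threshold and rests on a fit that leaves out libraries whose difference ran opposite to the others. It also rests on the block, although replicate numbers were not taken to pair at 21 hpf.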

How the results depend on the processing

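Counts of called gene models among the 42 did not move by more than 1.5 times under RLE scaling, without the expression filter or with same-hit copies summed and no block, in any of the 7 comparisons, and no change called in any of these fits changed sign in another. DESeq2 called 1 at 15 hpf, against 1.15% of all gene models, and 5 in each of the 2 time comparisons, against 8.11% in control and 7.07% in ethanol embryos. With the replicate block the counts were 1 at 15 hpf, 1 at 18 hpf, 8 for the mean over times, 8 for control embryos from 15 to 21 hpf and 15 for ethanol embryos. The shares over all gene models were, in the same order, 0.477%, 4.07%, 21.2%, 13.3% and 12%. For the mean the pairing does not hold at 21 hpf; its 8 were Sp-Slc26a4, Sp-Slc9a8, Sp-Cara14LA and Sp-Cara2LB_1 higher and Sp-Slc4a10 (L_var_01872), Sp-Slc9a2, Sp-Atp6v1h (L_var_01730) and Sp-Cara7LA lower, against 21.2% of all gene models. With the block and copies summed the counts were 1, 1, 6, 7 and 12. The shares over all gene models in that fit are not given here, so nothing about the 42 is read from these counts.

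Without both 21 hpf libraries of replicate 3 the counts were 1 at 15 hpf, 1 at 18 hpf and 5 for the mean, and 0.414%, 1.65% and 18.3% of all gene models were called. With the block added they were 5 at 15 hpf, 8 at 18 hpf, 3 at 21 hpf, 21 for the mean, 8 and 12 for control and ethanol embryos over time and 1 for the dependence on time. The shares over all gene models were, in the same order, 15.4%, 26.9%, 10.7%, 45.4%, 18.4%, 11.7% and 0.199%. With each replicate left out in turn, with and without the block, the counts ranged from 0 to 1 at 15 hpf, 0 to 1 at 21 hpf, 0 to 13 for the mean, 0 to 7 in control embryos over time and 0 to 11 in ethanol embryos over time. The cause of these movements was not tested, and fits without a replicate have fewer libraries. For these fits the shares over all gene models are not given for the ethanol comparisons. For the comparisons over time they are given above for only some of the fits. Nothing about the chosen gene models is therefore read from these ranges. Single gene models were followed only where the fit without or with the block had called them. Of their values in the other fits, 332 stayed on their side of the threshold, 108 moved to an adjusted p under 0.05 and 22 moved out of it. A gene model chosen because only the blocked fit called it can stay or move under the threshold, but not out of it. The 108 and the 22 are therefore not compared.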
